A study of Mus musculus with 2 samples.

Results

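The A20, TNIP and TNF-induced regulators described here are 10 genes: Tnfaip3, which encodes A20, the 3 genes of the A20-binding ABIN proteins (Tnip1, Tnip2 and Tnip3), Tax1bp1, Cyld, Otulin, Rnf31, Tnfaip2 and Bcl3. They were taken by gene symbol from the 55536 genes of the tables, whatever their values, and each symbol matched 1 gene. The RNA was the nucleoplasmic fraction of macrophages grown from C57BL/6J mouse bone marrow and stimulated with Lipid A at 100 ng/ml for 120 min, and ribosomal RNA had been depleted before sequencing. Lipid A, the membrane anchor of bacterial lipopolysaccharide, is sensed by the receptor Tlr4. The series held 1 group of 2 libraries, biological replicates 1 and 2, which the labels trace to separate biosamples of 1 donor entry. RNA input was labelled as 1 µg in replicate 1 and 500 ng in replicate 2, and 1 label field named the fraction only as the nucleus. No unstimulated, cytoplasmic or mutant sample was part of the series, so the values are levels after stimulation. Beyond counting error, the spread between both libraries is the only measure of error.

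Receptors such as Tlr4 and the TNF receptor pass their signal on through chains of the small protein ubiquitin, which hold adaptors and kinases together until the transcription factor NF-kB is released. Rnf31 (HOIP) builds linear chains, Otulin and Cyld take chains apart, and A20, helped by the ABIN proteins and Tax1bp1, edits or covers chains and so limits the signal. Several of these genes are themselves switched on by NF-kB in macrophages, which makes them textbook negative feedback. Bcl3 acts inside the nucleus as an IkB protein that binds NF-kB p50 and p52, and Tnfaip2 (M-Sec) is a TNF-induced protein related to the exocyst subunit Sec6 and known from the formation of tunnelling nanotubes.

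Replicate 1 totalled 14374739 estimated counts over its gene table and replicate 2 totalled 16372797. All 9 macrophage markers were above 1 TPM in both libraries, while the B cell, T cell and neutrophil lists summed to 4 to 35 counts in replicate 1 and 2 to 16 in replicate 2. The endothelial list summed to 548 and 545 counts, of which the receptor gene Kdr held 499 and 508. The libraries differed in other material. The 4 mitochondrial genes taken as markers of cytoplasmic RNA took up 0.28% of replicate 1 and 6.22% of replicate 2 by counts, and the 7 stromal fibroblast markers, led by the collagen gene Col1a1, summed to 4753 counts in replicate 1 and 24 in replicate 2. Of the fibroblast markers, Col3a1, Dcn and Lum were at 0 in replicate 2.

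Each member had at least 1 window of 250 bases before to 50 bases after an annotated start in RefSeq (GRCm38.p6), and Tnfaip3 and Tax1bp1 had a pair of windows each, 12 windows in all. Both strands were searched for the NF-kB consensus GGGR NN YYCC. In it R is A or G, Y is C or T and N is any base. The consensus was found in 7 of the 12 windows, belonging to 7 of the 10 genes, whereas 8.46% of all 32851 windows of the table held it. The windows of Tnip2, Rnf31 and Otulin held no match, and neither did the first window of Tax1bp1 or the inner window of Tnfaip3. The sites are shown because NF-kB is the factor whose signal A20 and its helpers limit. The 3 members with most TPM all had one, and so did Tnip1, Bcl3, Tax1bp1 and Cyld, which had lower levels. In Tnfaip2, Cyld and the second Tnfaip3 site the match is on the other strand, so the capitals are its reverse complement. Each site is read on the gene's strand with the consensus in capitals:
Tnfaip3, chr10:19015516-19015545, minus strand: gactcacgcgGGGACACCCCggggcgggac
Tnfaip3, chr10:19015403-19015432, minus strand: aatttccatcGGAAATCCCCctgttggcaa
Tnip3, chr6:65590334-65590363, plus strand: gagacatcctGGGAAATCCCagttacatgg
Tnip1, chr11:54962979-54963008, minus strand: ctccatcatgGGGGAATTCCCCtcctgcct
Tnfaip2, chr12:111442627-111442656, plus strand: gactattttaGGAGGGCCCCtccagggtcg
Bcl3, chr7:19822734-19822763, minus strand: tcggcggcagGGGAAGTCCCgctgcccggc
Cyld, chr8:88696863-88696892, plus strand: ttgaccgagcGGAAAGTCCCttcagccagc
Tax1bp1, chr6:52714185-52714214, plus strand: ctggaggaagaggcGGGGACTCCCtgtgtc

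The match began 125 and 12 bases before the start in Tnfaip3, 54 in Tnip3, 58 in Tnip1, 24 in Tnfaip2 and 155 in Cyld. In Bcl3 and Tax1bp1 it lay after the start, from bases 3 and 35. The Tnip1 run is symmetric and held 3 overlapping matches over both strands, and Tnfaip3 was the one member with matches at 2 separate places. The box TATAAA, searched on both strands, was found in 2 of the 12 windows, against 13.6% of all windows. It lay 225 bases before the start of Tnfaip3 on the gene's strand and 120 bases before that of Tnip3 on the other strand. The 250 bases before these starts are given as the pair that held both motifs, again with the NF-kB consensus in capitals. A match is a description of letters, and no binding was measured here.
Tnfaip3, chr10:19015411-19015660, minus strand: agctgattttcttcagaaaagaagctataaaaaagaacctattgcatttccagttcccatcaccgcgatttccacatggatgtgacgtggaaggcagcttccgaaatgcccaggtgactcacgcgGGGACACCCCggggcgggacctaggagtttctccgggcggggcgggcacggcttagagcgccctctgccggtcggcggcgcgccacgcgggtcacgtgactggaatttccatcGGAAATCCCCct
Tnip3, chr6:65590148-65590397, plus strand: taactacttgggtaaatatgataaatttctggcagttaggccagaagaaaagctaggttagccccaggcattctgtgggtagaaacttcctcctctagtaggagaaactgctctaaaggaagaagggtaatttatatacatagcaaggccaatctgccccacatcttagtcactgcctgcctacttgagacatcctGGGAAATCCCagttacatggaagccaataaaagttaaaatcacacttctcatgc

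All 10 members were detected, meaning 1 TPM or more in both libraries, against 20.2% of all genes in the tables. TPM is a level per length, counts divided by effective length and scaled to 1 total per library. The members held 0.931% of all counts in replicate 1 (95% Wilson interval 0.926 to 0.936) and 0.688% in replicate 2 (0.684 to 0.692), and Tnfaip2, Tnip3 and Tnfaip3 made up 88.3% and 89.3% of that. Their median was 117 TPM in replicate 1 and 49.7 TPM in replicate 2, beside 9.41 and 6.42 TPM for nuclear-encoded protein-coding genes averaging at least 1 TPM.

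Tnfaip3 (chromosome 10, 19000910 to 19015657, minus strand, mm10) had 34973 counts and 803 TPM in replicate 1, and 29827 counts and 469 TPM in replicate 2. It averaged 636 ± 236 TPM (SD, n = 2). Among 22015 nuclear-encoded protein-coding genes it ranked 24th by TPM in replicate 1 and 45th in replicate 2.

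Over all transcripts of the gene tables, the ABIN genes spanned about an order of magnitude. Tnip3 (chromosome 6, 65525313 to 65634040, plus strand), which encodes ABIN-3, had 29493 counts and 1054 TPM in replicate 1, and 22294 counts and 479.9 TPM in replicate 2. It was above Tnfaip3 by 1.31 times in replicate 1 and by 1.02 times in replicate 2, so the order of these neighbours rests on a gap within the spread. Tnip1 (chromosome 11, 54910785 to 54962917, minus strand), the ABIN-1 gene, had 136 TPM in replicate 1 and 49.0 TPM in replicate 2, and Tnip3 stood 7.74 and 9.80 times above it. In the read-based table described below these ratios were 4.41 and 6.04. Over the complete coding transcripts described below the gap was much smaller. There Tnip3 had 111 TPM against 63.4 for Tnip1 in replicate 1, and 65.3 against 33.3 in replicate 2. Tnip2 (chromosome 5, 34496087 to 34513991, minus strand), the ABIN-2 gene, had 107 TPM in replicate 1 and 49.1 TPM in replicate 2. Tnip1 and Tnip2 could not be told apart, at 92.6 ± 61.7 and 77.9 ± 40.6 TPM. Tax1bp1 (chromosome 6, 52713729 to 52766780, plus strand), whose protein links A20 to its targets, had 103 TPM in replicate 1 and 58.4 TPM in replicate 2, with 4109 and 3659 counts.

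Rnf31 (chromosome 14, 55591708 to 55603693, plus strand), the catalytic subunit of the linear ubiquitin assembly complex, had 4680 counts and 128 TPM in replicate 1, and 3291 counts and 50.3 TPM in replicate 2. Otulin (chromosome 15, 27542635 to 27630693, minus strand), which cuts linear chains, had 325 counts and 20.98 TPM in replicate 1, and 199 counts and 9.28 TPM in replicate 2. Over all transcripts, Rnf31 therefore stood 6.11 times above Otulin in replicate 1 and 5.42 times in replicate 2. Over the complete coding transcripts described below the gap was smaller. There Rnf31 had 45.7 TPM against 15.6 for Otulin in replicate 1, and 20.1 against 5.67 in replicate 2. Cyld (chromosome 8, 88697028 to 88751945, plus strand), which cuts linear and other chains, had 1059 counts and 21.4 TPM in replicate 1, and 958 counts and 12.9 TPM in replicate 2. Tnfaip3 exceeded Cyld 37.5 times in replicate 1 and 36.3 times in replicate 2. In the read-based table, which the authors made from the read files, the same ratio was 43.96 and 35.5.

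Tnfaip2 (chromosome 12, 111442469 to 111455018, plus strand) was the highest member. It had 53711 counts and 1739 TPM in replicate 1, and 48419 counts and 913 TPM in replicate 2, and ranked 5th and 13th among nuclear-encoded protein-coding genes. Bcl3 (chromosome 7, 19808462 to 19822770, minus strand) had 1474 counts and 102 TPM in replicate 1, and 1017 counts and 42.4 TPM in replicate 2.

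**Figure D1:**
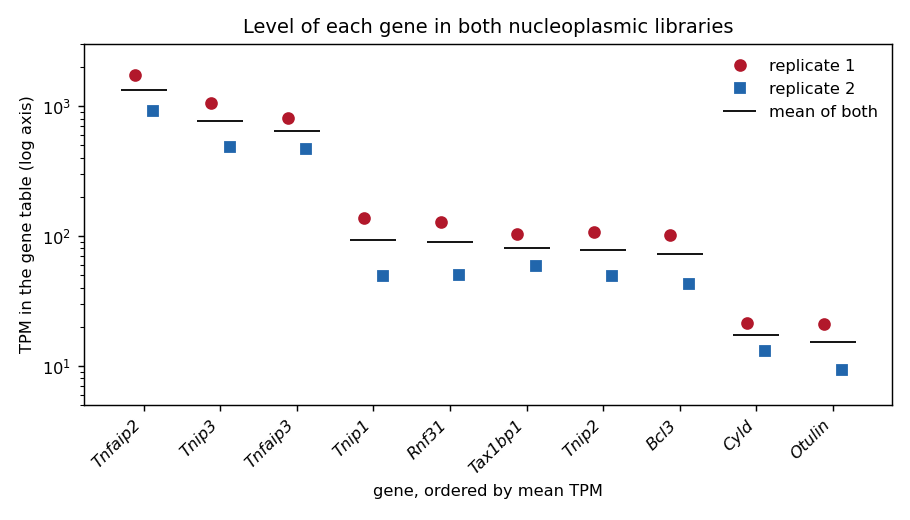
TPM of each of the 10 genes in the gene tables, on a log axis, with replicate 1 as circles, replicate 2 as squares and the mean as a bar. Tnfaip2, Tnip3 and Tnfaip3 lie at means of 636 to 1326 TPM, 5 genes lie between 72.3 and 92.6 TPM, and Cyld and Otulin lie at 17.2 and 15.1 TPM, with replicate 1 above replicate 2 for every gene.

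The plot of levels by gene shows 3 tiers with gaps wider than the spread. The lowest library of the upper tier (Tnfaip3, 469 TPM) was above the highest library of the middle one (Tnip1, 136 TPM), and the lowest library of the middle tier (Bcl3, 42.4 TPM) was above the highest of the lower one (Cyld, 21.4 TPM). Within the middle tier, Tnip1 at 92.6 ± 61.7, Rnf31 at 89.2 ± 55.1, Tax1bp1 at 80.5 ± 31.2, Tnip2 at 77.9 ± 40.6 and Bcl3 at 72.3 ± 42.3 TPM did not differ beyond their spread. Cyld at 17.2 ± 6.00 and Otulin at 15.1 ± 8.27 TPM did not either. Every member was higher in replicate 1, and this spread includes that shared difference. Within replicates 1 and 2, Tnip2 stood above Bcl3 by 1.04 and 1.16 times, and Cyld above Otulin by 1.02 and 1.39 times. The other neighbours of the middle tier changed order between the libraries. Of the 45 pairs of members, 40 kept 1 order in both libraries.

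The members are annotated with 77 transcripts, of which 51 had 10 or more estimated counts in both libraries and 9 had 0 in both. A count of 0 allows up to 3 counts, which is 0.923% of the gene's counts in replicate 1 for Otulin, the lowest member. In 7 of the 10 genes the transcript with the largest mean share of TPM was a complete coding one. The other 3 were Tnfaip3, Tnip3 and Cyld. This depended on the table: by read-based TPM a complete coding transcript led in 2 of the 10, Tax1bp1 and Otulin, and shares below are from the alignment-based tables unless stated. In the read-based table Tnip1 was led by the retained-intron transcript Tnip1-209, Tnip2 by Tnip2-206 and Rnf31 by Rnf31-202. How often other genes were led by a complete coding transcript was not counted. Transcripts annotated as retained intron were present in 9 members and absent only from Otulin. The class is a name in the annotation. Whether its reads came from RNA not yet spliced or from RNA that keeps the intron was not tested. Shares of TPM and shares of counts answer different questions here: very short transcripts get a small effective length, and the labels give a library size range of 250 to 400, with no unit, so that few counts on a short transcript become a large part of the TPM.

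Tnip3 stood apart from the other members. Its 4 retained-intron transcripts took 89.5% of its TPM in replicate 1 and 86.4% in replicate 2, and 82.1% (Wilson interval 81.7 to 82.6) and 82.6% (82.1 to 83.1) of its counts. The 2 single-exon transcripts Tnip3-206 and Tnip3-204 alone held 70.2% and 74.2% of the counts. Of the bases of Tnip3-206 94.7%, and of Tnip3-204 95.1%, lie outside the exons of complete coding transcripts. Tnip3-206 is 4627 bases long and runs through the whole first intron of the coding transcript Tnip3-201 (2816 bases) into the next, covering 60.6% of it. Tnip3-204 covers 95.0% of intron 4. The leading transcript by mean TPM was the short Tnip3-205, with 33.4% in replicate 1 and 25.5% in replicate 2 but 10.5% and 7.28% of the counts; in replicate 2 alone Tnip3-204 led, at 27.5% of TPM. The short Tnip3-203 held 13.5% and 11.6% of TPM. The complete coding transcripts of Tnip3 made up 10.5% and 13.6% of its TPM.

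Tnfaip3 was split between classes. Its complete coding transcripts Tnfaip3-201 and Tnfaip3-202 held 39.1% of TPM in replicate 1 and 39.5% in replicate 2, and its 2 retained-intron transcripts held 55.1% and 54.2%. By alignment-based TPM this retained-intron share was the closest between libraries of the 9 members with such transcripts, with an SD of 0.639 percentage points. It was not the closest by other measures. By counts Tnfaip3 had 46.9% and 44.7%, and Tnip3 82.1% and 82.6%. By read-based TPM Tnfaip3 had 45.5% and 48.2%, and Tnfaip2 22.4% and 21.1%. Tnfaip3-205, a 6199-base transcript that keeps introns 4 and 6 of Tnfaip3-202 whole, took 40.9% of counts in replicate 1 and 38.3% in replicate 2. The leading transcript by TPM was the 764-base Tnfaip3-206, at 33.9% and 35.0%, which holds 510 bases of the first intron but only 6.01% and 6.41% of the counts.

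In Rnf31, the coding transcript Rnf31-201 held 35.7% of TPM in replicate 1 and 40.0% in replicate 2. Rnf31-203, which keeps introns 7, 8 and 11 whole, held 27.8% and 35.8% of TPM and 50.5% and 54.8% of counts, so that by counts it was ahead of the coding transcript in both libraries. The 266-base Rnf31-202 took 25.9% of TPM in replicate 1 and 13.8% in replicate 2 from 0.652% and 0.277% of the counts.

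For Tnfaip2 the coding transcript Tnfaip2-201 led by TPM and by counts in the alignment-based tables, with 40.3% of TPM in replicate 1 and 50.3% in replicate 2, and 65.1% and 71.4% of counts. Tnfaip2-207, which keeps the 169-base intron 5 whole and 83.1% of intron 6, held 16.9% and 16.4% of TPM and 28.3% and 24.1% of counts. The 398-base coding fragment Tnfaip2-205 held 25.4% and 23.2% of TPM from 2.12% and 1.70% of counts. In the read-based table this fragment led, at 51.1% of TPM in replicate 1 and 47.8% in replicate 2, and Tnfaip2-201 held 19.9% and 27.3%.

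The junctions of whole introns retained in these transcripts are given for the 4 genes with most counts on such a transcript. Each intron lies between coding bases of the coding transcript and opens with GT and closes with AG, as did every one of the 8 introns listed for the 10 genes. Exon bases are in lower case and intron bases in capitals, 12 and 18 in each run, from the GENCODE M21 transcript sequences:
Tnip3 intron 1, start: gagcacacagagGTAAGAGCATGTGTCAGG
Tnip3 intron 1, end: TTATTATTATCTTTAAAGtgtgctccacca
Tnfaip3 intron 4, start: acagtggacctgGTAAGAAAACATCAGTTC
Tnfaip3 intron 4, end: TTTTTTTTTCCCCTTCAGaacttcgcgctg
Tnfaip2 intron 5, start: gacattctccagGTACCACTAATGTCCCCC
Tnfaip2 intron 5, end: ACCCACTGCTCCCTGCAGatcatttcacaa
Rnf31 intron 11, start: ccccgcaaccggGTAAGCCTCTGCCTACCT
Rnf31 intron 11, end: CCCCTCCTCCCACCATAGatgcaggccctg

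These introns lie at chr6:65590653-65593468 (Tnip3, plus strand, 2816 bases), chr10:19005732-19006862 (Tnfaip3, minus strand, 1131 bases), chr12:111448370-111448538 (Tnfaip2, plus strand, 169 bases) and chr14:55596859-55598637 (Rnf31, plus strand, 1779 bases), in mm10. Of the 25 retained-intron transcripts of the members, 7 contained a whole intron of the gene's main coding transcript. The other 18 held none of these introns whole.

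The remaining ABIN genes differed from Tnip3. In Tnip1 the coding transcript Tnip1-205 led, with 33.7% of TPM in replicate 1 and 46.9% in replicate 2, and the coding Tnip1-202 held 11.2% and 15.2%. Its complete coding transcripts held 88.0% and 95.5% of the counts, the highest share of the 10 members in both libraries in the alignment-based tables. By read-based counts Otulin was higher in replicate 1, at 87.2% against 76.3% for Tnip1. The 442-base retained-intron transcript Tnip1-209 had 20.3% and 13.9% of TPM but 3.51% and 1.78% of counts, and the short processed transcript Tnip1-210 had 14.7% and 12.3% of TPM. Tnip2 was led by the coding Tnip2-202, with 29.8% of TPM in replicate 1 and 31.5% in replicate 2, next to the retained-intron transcripts Tnip2-204 (27.2% and 23.6%) and Tnip2-206 (25.6% and 21.3%). The coding Tnip2-203 held 10.8% and 20.4%. All 3 retained-intron transcripts of Tnip2 reach into intron 2, and the largest part any of them covers is 14.9%.

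Tax1bp1 had 1 complete coding transcript, Tax1bp1-201, with 37.0% of TPM in replicate 1 and 49.8% in replicate 2. The retained-intron transcripts Tax1bp1-206, which covers 57.8% of intron 16, and Tax1bp1-202, which covers 55.7% of intron 4, held 25.8% and 24.2% in replicate 1 and 22.1% and 19.6% in replicate 2. By counts the class made up 57.1% in replicate 1 (Wilson interval 55.6 to 58.6) and 46.3% in replicate 2 (44.7 to 47.9). These intervals cover counting error only and did not overlap.

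Cyld was led by a noncoding processed transcript, Cyld-208, with 25.2% of TPM in replicate 1 and 27.6% in replicate 2. By counts the long coding Cyld-203 led, at 36.1% and 30.3%. The coding Cyld-204 held 15.9% and 10.2% of TPM, the single-exon Cyld-211 held 20.2% and 12.4%, and Cyld-207, which keeps intron 6 whole, held 16.8% and 20.5%. Otulin was read as the coding Otulin-201 (74.4% of TPM in replicate 1 and 61.1% in replicate 2) and the nonsense-mediated decay transcript Otulin-203 (25.6% and 38.9%). Bcl3 was led by its complete coding transcript Bcl3-201 (48.9% and 58.3% of TPM, 78.1% and 84.2% of counts), followed by the retained-intron transcripts Bcl3-202 (30.2% and 23.6% of TPM) and Bcl3-206 (12.6% and 10.7%).

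**Figure D2:**
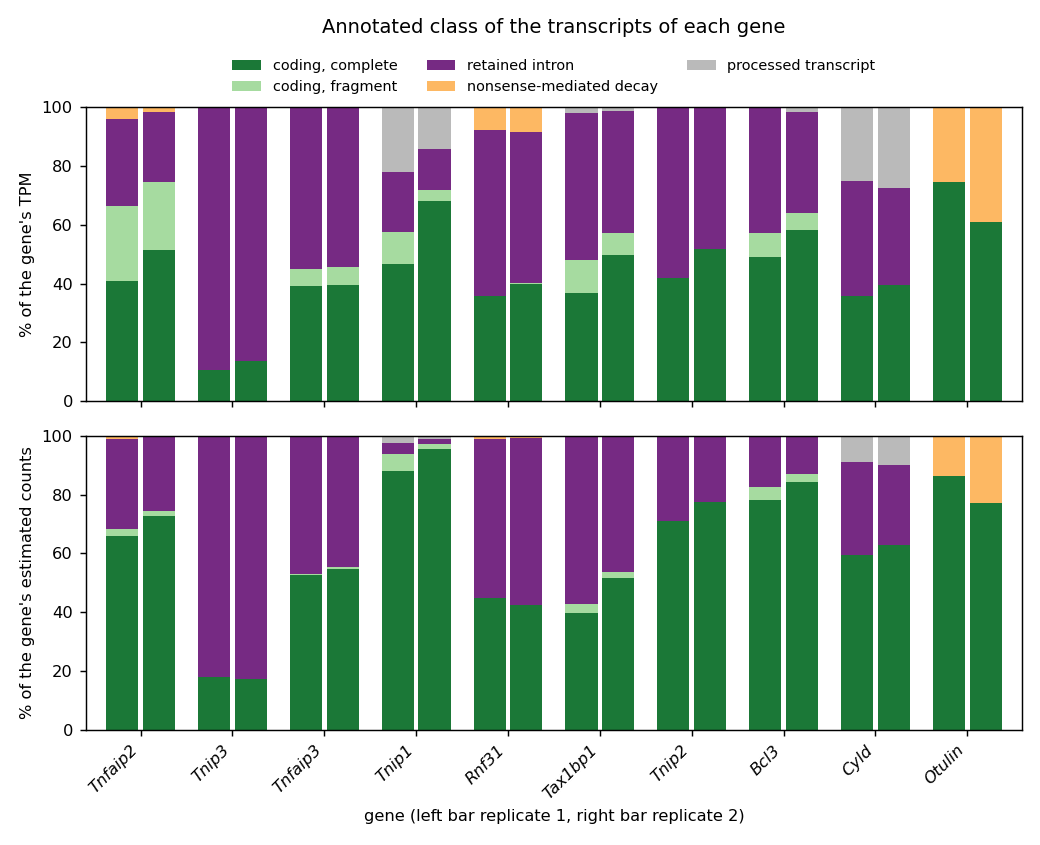
Share of each gene's TPM (upper panel) and estimated counts (lower panel) by annotated transcript class, with replicate 1 as the left and replicate 2 as the right bar of each pair. Tnip3 is mostly transcripts annotated as retained intron in both panels (89.5% and 86.4% of TPM), and Otulin has none. Tnip1 is almost all complete coding by counts (88.0% and 95.5%).

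Across the 9 members with such a transcript, the median retained-intron share of TPM was 49.99% in replicate 1 and 41.7% in replicate 2. The median over the 3788 protein-coding genes that had such a transcript and at least 5 TPM in each library was 39.3% and 33.0%. By the mean of both libraries the members' median was 45.9%, 6 of the 9 members were above the genes' median of 36.0%, and the middle 50% of genes ran between 21.4% and 51.7%. Tnip3 was above 99.3% of these genes, Tnfaip3 above 79.0%, Rnf31 above 78.1%, Tnip2 above 76.9% and Tnip1 above 18.7%. All 9 members had the higher share of alignment-based TPM in replicate 1, where the genes' median was also higher. By read-based TPM Tnfaip3 was an exception, at 45.5% in replicate 1 and 48.2% in replicate 2. By counts 7 of the 9 were higher in replicate 1, the exceptions being Tnip3 and Rnf31. The genes' median by counts was 24.6% in replicate 1 and 19.6% in replicate 2. How many of the 3788 genes had the higher share in replicate 1 was not counted. Only by read-based TPM did the place of the members beside other genes turn. There their median was 35.4% and that of the genes 38.9%, with 4 of the 9 above it. By counts the members' median was 29.4% and that of the genes 22.5%. By read-based counts these were 35.8% and 26.6%, and by either count 7 of the 9 were above the genes' median.

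Levels restricted to complete coding transcripts gave another order. Tnfaip2 stayed the highest, with 713 TPM in replicate 1 and 468 TPM in replicate 2, followed by Tnfaip3 with 314 and 185 TPM. Tnip3, at 111 and 65.3 TPM, was then below Tnfaip3 in both libraries, and by more than their spread (88.3 ± 32.4 against 249.8 ± 91.3 TPM). Tnip1 had 63.4 and 33.3 TPM, Bcl3 50.04 and 24.7, Rnf31 45.7 and 20.1, Tnip2 44.9 and 25.5, and Tax1bp1 38.0 and 29.1. Otulin, at 15.6 and 5.67 TPM, and Cyld, at 7.69 and 5.11 TPM, were not apart beyond their spread (10.6 ± 7.03 against 6.40 ± 1.82 TPM). Otulin was the higher of this pair in both libraries.

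The read-based table gave similar levels for most genes. There Tnfaip3 had 777 TPM in replicate 1 and 411 TPM in replicate 2, above Tnip3 at 747 and 334, so the order of this pair turned with the table. Tnfaip2 had 1660 and 846 TPM. Bcl3 moved most as a ratio, 1.80 times its alignment-based mean, to 185 TPM in replicate 1 and 75.5 TPM in replicate 2. The short processed transcripts Bcl3-204 and Bcl3-205 held 32.6% and 24.3% of its read-based TPM in replicate 1 and 38.2% and 18.2% in replicate 2, while the alignment-based tables gave them 0 counts in replicate 1, which allows 0.204% of the gene's counts. In replicate 2 those tables gave Bcl3-204 3.95 counts and Bcl3-205 none. Tnip2-203 was the reverse case, listed at 0 in the read-based table. Over all 4 tables, 34 of the 45 pairs of members kept 1 order.

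**Figure D3:**
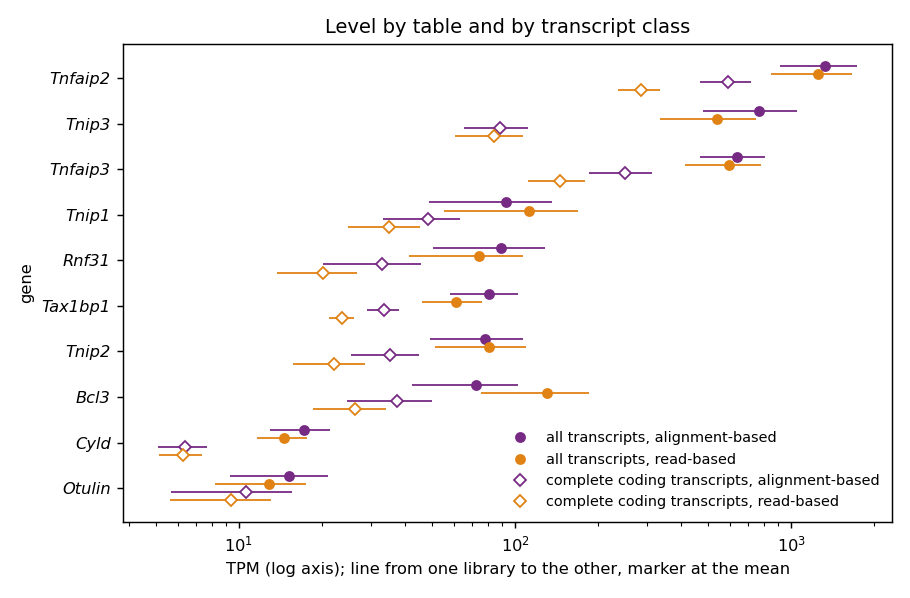
TPM on a log axis for each gene over all transcripts (filled circles) and over complete coding transcripts (open diamonds), from the alignment-based tables (purple) and the read-based ones (orange), with a line between the 2 libraries and a marker at their mean. The distance between circles and diamonds is wide for Tnip3 (767 against 88.3 TPM in the alignment-based tables) and narrow for Otulin (15.1 against 10.6 TPM).

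All 10 members had the higher TPM in replicate 1, by 1.66 times (Cyld) to 2.78 times (Tnip1). Much of this was shared with other genes: over the 12655 genes that averaged at least 1 TPM, the median log2 difference of TPM + 1, replicate 1 over replicate 2, was 0.58. Relative to that median, all 10 members were still higher in replicate 1, against 50% of the genes, and none was 2-fold apart, while 5.0% of genes were 2-fold or more higher and 5.32% 2-fold or more lower in replicate 1. The relative log2 difference was 0.88 for Tnip1, 0.75 for Rnf31, 0.67 for Bcl3, 0.55 for Tnip3, 0.52 for Tnip2, 0.51 for Otulin, 0.35 for Tnfaip2, 0.22 for Tax1bp1, 0.19 for Tnfaip3 and 0.10 for Cyld. The members' median was 0.52. Single genes among the 12655 had an SD of 0.81, which does not measure how a median over 10 genes varies, and the biological coefficient of variation common to 13420 genes was 0.305 by edgeR. With 1 library on each side the difference could not be tested.

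Effective length took part in these differences. The effective length of Tnip1 was 1305 bases in replicate 1 and 1760 in replicate 2, and dividing by it adds 0.43 on the log2 scale to its TPM ratio. The same term was 0.25 for Rnf31, 0.19 for Tnfaip2 and 0.14 for Tnip3 and Bcl3, and lay between -0.12 (Otulin) and 0.13 (Tnip2) for the other 5. From counts with TMM scaling, which use no length, all 10 members were again higher in replicate 1 (51.0% of genes were), but in another order: 0.63 for Otulin, 0.49 for Bcl3, 0.47 for Rnf31, 0.41 for Tnip1, 0.36 for Tnip3, 0.35 for Tnip2, 0.19 for Tnfaip3, 0.13 for Tax1bp1, 0.11 for Tnfaip2 and 0.10 for Cyld. Cyld was the one member whose sign depended on the table, at -0.057 in the read-based one.

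**Figure D4:**
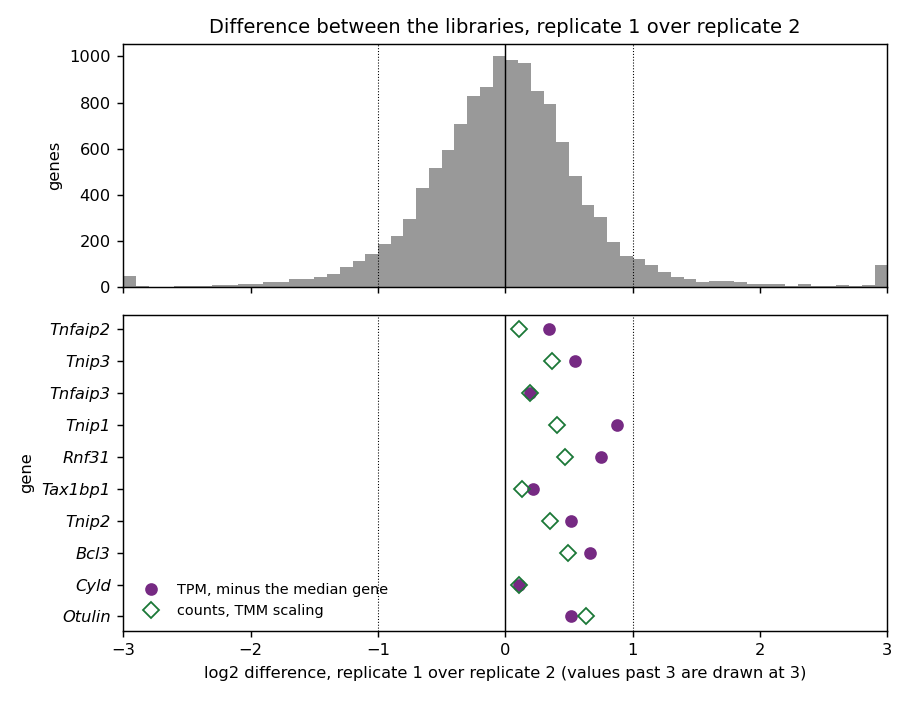
Log2 difference between the libraries, replicate 1 over replicate 2, as a histogram over genes averaging at least 1 TPM (upper panel) and for each member (lower panel), from TPM relative to the median gene (circles) and from counts with TMM scaling (diamonds). All members lie right of 0 and left of the dotted 2-fold line, from 0.10 (Cyld) to 0.88 (Tnip1).

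Other material moved with the libraries in both directions. The 4 mitochondrial genes (mt-Co1, mt-Nd1, mt-Cytb and mt-Nd4) were at relative log2 differences of -4.35 to -5.70, the 9 macrophage markers had a median of -1.43 with 1 of 9 higher in replicate 1, and 5 fibroblast markers averaging at least 1 TPM had a median of 3.41. Csf1r, Cd68, Lyz2, Itgam and Cd14 were the macrophage markers 2-fold or more apart, at -1.43 to -2.29. The 3 nuclear RNA markers, Malat1 among them, were all higher in replicate 1, with a median of 0.32. The part of these shifts in the members' difference was not tested. In whole fractions, fewer cells carrying an RNA and less of it per nucleus cannot be told apart.

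The same pathways hold other genes, read from 8 lists that also include members. Of 54 symbols outside the 10 members 53 matched a gene, 48 were detected, their median was 22.5 TPM, and 34 of the 48 averaging at least 1 TPM were higher in replicate 1 by the relative difference, with a median of 0.13 and none 2-fold apart. In the list of linear ubiquitin assembly and removal, Rnf31 was the highest of 6 genes, above its partner subunits Sharpin (38.1 TPM in replicate 1 and 24.4 in replicate 2) and Rbck1 (30.1 and 17.7), and Spata2, which joins Cyld to the complex, was the lowest at 13.9 and 6.23 TPM. Among the A20 partners, Tnfaip3 was the highest and the RING protein gene Rnf11 the lowest of 5, at 12.9 and 11.5 TPM. The other 12 deubiquitinases ran from Usp18, which removes the ubiquitin-like protein Isg15, at 144 TPM in replicate 1 and 93.0 in replicate 2, to Otud1 at 5.24 and 4.46 TPM. None of these 12 reached the level of Tnfaip3.

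Of 16 genes of receptor complexes and their kinases, the ubiquitin ligase Birc3 was the highest, at 155 TPM in replicate 1 and 87.5 in replicate 2, and the kinase adaptor Tab1 the lowest, at 2.89 and 1.75. Of 6 ubiquitin-binding adaptors, the autophagy receptor Sqstm1 was the highest, at 158 and 179.6 TPM, and Calcoco1 the lowest, at 3.77 and 3.16. Sqstm1 had a relative log2 difference of -0.77, away from the members. Among the other genes named for TNF alpha induction, Tnfaip8 had 79.7 TPM in replicate 1 and 43.7 in replicate 2, and 3 of 6 were detected, the lowest being Tnfaip8l3 with 2 counts in replicate 1 and 0 in replicate 2. Tnfaip2 and Tnfaip3 were both above this whole list. Around Bcl3, the p50 gene Nfkb1 was the highest of 5, at 383 TPM in replicate 1 and 164 in replicate 2, and the nuclear IkB gene Nfkbid the lowest, at 35.9 and 15.0. All 5 of that list had positive relative differences (median 0.62). In the Sec6 family, Tnfaip2 was far above the next gene, Exoc3l4, at 33.8 and 20.8 TPM, and Exoc3l2 was the lowest, with 2 counts in replicate 1 and 0 in replicate 2.

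Some members share exon bases with other genes, and the sources used here do not say whether counting used strand. Tnfaip2 shares 314 of 4984 exon bases with the antisense gene Gm40578, which had 1209 counts in replicate 1 and 737 in replicate 2, few beside those of Tnfaip2. Rnf31 shares 123 of 5734 exon bases with Irf9 on its own strand, which had 1580 and 1382 counts. Bcl3 shares 161 bases with the antisense gene Gm16175 (2 counts and 0 counts), and Tax1bp1 160 bases with Gm43966 (11.9 and 3 counts). The other 6 members shared none.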

How the data were processed

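The authors deposited a gene and a transcript table per library made from a transcriptome alignment, and a transcript table made from the reads, with mm10 and annotation M21 per the accompanying notes. The aligner, the counting tools with their versions, and the use of strand are not given here by any label or file. Columns are named as RSEM and kallisto name theirs. Expected counts are the authors' estimated counts per gene or transcript, per the file headers. Per the file headers, the deposited TPM and FPKM values divide by effective length and scale to the library; FPKM served only as an alternative. Entries without a gene name were left out of all lists.

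Members were taken by symbol with no filter on their values, but members and lists were chosen with earlier results of these data known. The members' detection and levels beside other genes are therefore description only. The text names all members, the highest and lowest gene of each pathway list, any list gene over 2-fold apart with 100 or more counts in both, and each member's leading transcript with every other at 10% or more of TPM in both. Differences are log2((TPM + 1) in replicate 1 over replicate 2), less the median of genes averaging at least 1 TPM. Complete coding transcripts are protein-coding ones not tagged as lacking a start or end of the coding sequence. The main coding transcript, against which introns are numbered, is the complete coding one with most TPM. TMM scaling and the coefficient of variation used edgeR 4.0.16 (intercept only) on expected counts rounded to whole numbers, with DESeq2 1.42.0 as an alternative, in R 4.3.3; genes needed 10 counts in both. The rest ran in Python 3.11.15 with numpy 2.4.6, pandas 2.3.3, matplotlib 3.10.9 and scipy 1.17.1, and was tested on simulated data. Wilson intervals at 95% and the limit of 3 counts for a count of 0 cover counting error only.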

Additional observations from a re-analysis of the deposited data

How the results depend on the processing

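All 10 members were detected under every alternative run: 5 TPM, 10 expected counts, FPKM, the read-based table and either library alone. The runs on either library alone could not differ, because detection already required both libraries. Their median of 84.9 TPM was 324 TPM when rescaled to nuclear-encoded protein-coding genes and ran from 49.7 to 117 TPM with 1 library left out. The median log2 difference of 0.52 was 1.10 with no median subtracted and 0.79 with no filter on low values, where 6 and 2 members were 2-fold apart in place of 0; under the other 6 settings it ran from 0.36 to 0.58 with 0 apart. The count of members higher in replicate 1, for which alternatives were chosen after seeing the data, was 10 throughout except 9 in the read-based table, where Cyld was at -0.057. The median retained-intron share of 45.9% of TPM was 29.4% of counts and 35.4% of read-based TPM, and ran from 41.7% to 49.99% with 1 library left out; the cause of these shifts was not tested, beyond that counts are not divided by length. The count of 7 genes led by a complete coding transcript, whose alternatives were also chosen after seeing the data, was 2 in the read-based table and 7 by counts and in either library alone. By counts these were not the same genes: Cyld was led by the coding Cyld-203, and Rnf31 by the retained-intron transcript Rnf31-203. Single-gene values were compared under settings that keep both libraries. Of these, 9 of 10 levels and 3 of 20 leading transcript shares moved by less than the SD between the libraries. Most leading shares therefore depend on the table or measure. Of the differences, 29 of 80 moved by less than the counting error of the gene's counts. That limit holds no biological spread, which a difference with 1 library on each side cannot give. No paired analysis was possible because the series holds 1 group. Differences could not be recomputed without a library. With 2 libraries of 1 group and no control, no value here shows a response to Lipid A. Transcript shares are estimates from reads that transcripts share, and TPM moves with the short RNA of a library.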
